A study of Mus musculus with 11 samples.

Results

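Microglia, the resident macrophages of the brain, were followed through 10 of their genes in hippocampus of mice that lack the 1b regulatory region of the sodium channel gene Scn1a. The genes were chosen by name, as a group of microglial and complement genes, and found by symbol: Cx3cr1, P2ry12, Tmem119, Csf1r, Trem2, Aif1, Cd68, C1qa, C1qb and C1qc. All 10 were present in both count tables, which hold 24391 genes for the heterozygous round and 24015 for the homozygous round, and all 10 passed the filter on low counts in both. The RNA came from C57BL/6N mice whose labels read adult hippocampus, and the methods give the age as postnatal day 32. The heterozygous round compared 3 WT mice, all male, with 4 mice carrying 1 deleted allele (1b+/-, 3 male and 1 female, with the female as replicate 4). The homozygous round compared 2 WT mice, both female, with 2 mice carrying the deletion on both alleles (1b-/-, male replicate 1 and female replicate 2). The 2 rounds were read differently, with paired-end reads of 150 bases in the first and single-end reads of 50 bases in the second. All mutants descend from 1 line made with Cas9, the deletion was present in every cell of these animals, and no group of WT mice carried it.

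Microglia read their surroundings through receptors such as Cx3cr1, which binds the neuronal chemokine Cx3cl1, and P2ry12, which senses nucleotides released from damaged or active cells. Csf1r keeps these cells alive by binding Csf1 and Il34, and Trem2 signals through the adaptor Tyrobp. C1q opens the classical complement pathway, is assembled from the products of C1qa, C1qb and C1qc, and in the brain is made mainly by microglia, where it has been tied to the tagging and removal of synapses.

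Library totals ran from 20667122 to 36145161 counts, and the 10 genes held between 81 counts (Aif1) and 4721 counts (Csf1r) in a library. The targeted gene Scn1a averaged 21.5 CPM ± 6.81 (SD, n = 2) in 1b-/- and 153 CPM ± 27.5 (SD, n = 2) in their WT, and at 97.7 CPM ± 15.5 (SD, n = 4) in 1b+/- against 136 CPM ± 31.0 (SD, n = 3) in theirs, where CPM is the depth-scaled count, with TMM factors within a round. The WT libraries of the homozygous round went against their tissue label. In them 13 striatal marker genes summed to between 3834 and 9257 CPM, against 373 to 464 CPM in the 1b-/- mice. For the heterozygous round the sum was 396 to 610 CPM in WT and 339 to 395 CPM in 1b+/-, also lower in the mutants without overlap. The 10 genes of hippocampal excitatory neurons summed to between 151 and 189 CPM in the same WT libraries and to between 548 and 729 CPM in the other 9. Without both of them the homozygous round holds no WT library, so every value of the homozygous comparison below rests on them, and tissue content and genotype cannot be told apart in that round. In bulk tissue, fewer microglia and less RNA per microglial cell also cannot be told apart.

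The 3 C1q genes lie side by side on the minus strand of chromosome 4 in mm9, the build of the counts. C1qb spans chr4:136436044-136442102, C1qc chr4:136445719-136448980 and C1qa chr4:136451832-136454718, so that 3616 bases separate C1qb from C1qc and 2851 bases separate C1qc from C1qa. Aif1 lies at chr17:35307936-35313013, Trem2 at chr17:48485726-48493472, Cx3cr1 at chr9:119957811-119977400, Tmem119 at chr5:114243738-114250525 and Cd68 at chr11:69477715-69479655. P2ry12, at chr3:59020193-59066753, overlaps Med12l on the opposite strand without a shared exon, and exons of Csf1r overlap those of Hmgxb3 on the opposite strand. The strand setting of the counting is not given in the sources used here, so part of the Csf1r count may belong to Hmgxb3. These positions are from GENCODE vM1, which was used here for gene models and is not stated to be the annotation behind the counts.

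Promoters are shown for C1qb and C1qc, neighbours whose products join in 1 protein, and for Aif1 and P2ry12, whose change differed between the comparisons. The sequences are from RefSeq on GRCm38.p6, another build than that of the counts, and run from 250 bases before to 50 bases after the annotated start of transcription, 5′ to 3′ on the strand of the gene. Of the 10 genes, 7 had an entry. Capitals mark matches on either strand to GAGGAA or AGGAAGT, short forms of the purine-rich site of ETS factors such as Spi1 (PU.1), the factor that myeloid cells depend on; the patterns can overlap.
C1qb, chr4:136886151-136886450: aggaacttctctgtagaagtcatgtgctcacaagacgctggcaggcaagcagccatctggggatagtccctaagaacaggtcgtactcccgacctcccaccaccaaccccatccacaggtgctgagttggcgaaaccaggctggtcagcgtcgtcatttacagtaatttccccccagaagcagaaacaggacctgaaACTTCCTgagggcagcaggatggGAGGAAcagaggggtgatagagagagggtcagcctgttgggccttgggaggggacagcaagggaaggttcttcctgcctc
C1qc, chr4:136892865-136893164: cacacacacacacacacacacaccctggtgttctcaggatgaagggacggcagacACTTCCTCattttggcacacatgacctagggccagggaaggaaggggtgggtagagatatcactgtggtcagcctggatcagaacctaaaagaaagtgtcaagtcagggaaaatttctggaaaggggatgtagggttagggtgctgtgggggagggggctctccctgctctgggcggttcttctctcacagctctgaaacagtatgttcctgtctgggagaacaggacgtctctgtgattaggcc
Aif1, chr17:35176003-35176302: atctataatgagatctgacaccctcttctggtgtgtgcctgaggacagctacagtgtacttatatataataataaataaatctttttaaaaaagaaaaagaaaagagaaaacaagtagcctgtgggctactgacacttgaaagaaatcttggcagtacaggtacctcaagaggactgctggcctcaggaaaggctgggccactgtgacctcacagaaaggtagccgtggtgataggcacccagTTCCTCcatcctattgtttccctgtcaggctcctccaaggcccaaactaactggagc
P2ry12, chr3:59262936-59263235: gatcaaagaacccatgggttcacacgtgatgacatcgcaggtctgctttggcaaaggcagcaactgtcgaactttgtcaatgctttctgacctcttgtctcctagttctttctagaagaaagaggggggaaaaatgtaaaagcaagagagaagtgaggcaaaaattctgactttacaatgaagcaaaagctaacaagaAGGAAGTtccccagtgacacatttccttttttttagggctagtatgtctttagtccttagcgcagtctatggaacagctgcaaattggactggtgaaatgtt
C1qb held both patterns, AGGAAGT on the minus strand 53 bases before the start and GAGGAA on the plus strand 30 bases before it. In C1qc both fell on 1 overlapping stretch, beginning 195 bases before the start. Aif1 held GAGGAA on the minus strand 7 bases before the start, and P2ry12 held AGGAAGT 52 bases before it. GAGGAA was found in 5 of the 7 promoters, against 28.3% of 32851 promoters of the same 300 bases, and AGGAAGT in 3 of the 7, against 9.35%. A match is a string of letters, and binding was not measured.

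In 1b+/- hippocampus none of the 10 genes was called against WT. Their log2 fold changes ran from -0.22 (Trem2) to 0.09 (Cd68), with 8 below 0 and a median of -0.08, where the median over all genes tested was 0.00073. By edgeR's quasi-likelihood test, adjusted by Benjamini-Hochberg over 14630 genes, 0 of the 10 had an adjusted p under 0.05, beside 0% of all genes (0 genes). At an unadjusted p under 0.05 the count was also 0 of 10, beside 11.3% of all genes, and the likelihood ratio test and DESeq2 called 0 of 10 as well. All 10 of the 95% intervals held 0. Scn1a itself, at 72.0% of WT, was not called by the quasi-likelihood test either (log2 fold change -0.47, adjusted p = 0.303). The paper reported Scn1a as significantly lower in these heterozygotes, and many further genes as differentially expressed in them. The count of 0 over all genes holds for the quasi-likelihood test used here. In the same comparison, the likelihood ratio test and DESeq2 each called 4 genes of the marker lists described below. The count of 0 does not show that these heterozygotes had no changed genes. The absence of a call here is therefore not evidence that a gene was unchanged.

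**Figure D1:**
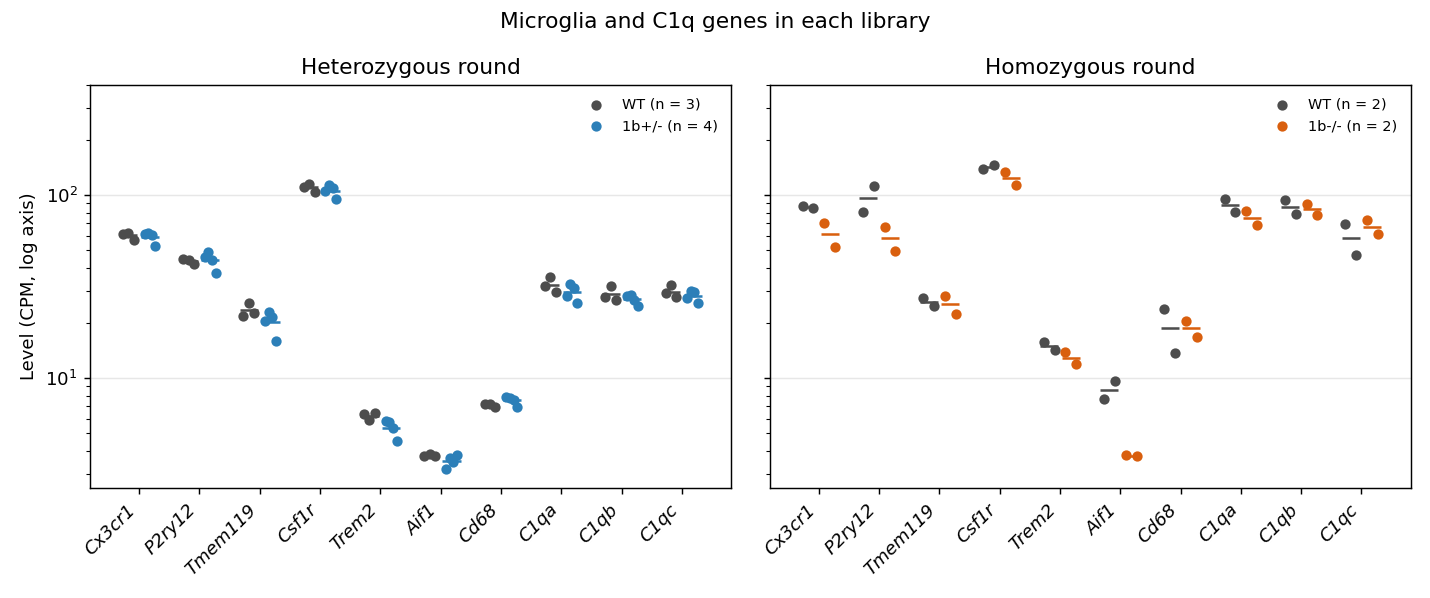
Level of each gene in each library, in CPM on a log axis, with WT and mutant libraries of a round side by side; short lines are group means. The 1b+/- and WT points overlap for all genes but Trem2, and the 1b-/- points lie below both WT points for Cx3cr1, P2ry12, Csf1r, Trem2 and Aif1.

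Cx3cr1 and P2ry12, the surface receptors, were near level in this round. Cx3cr1 was at 61.6, 62.1 and 56.9 CPM in WT and at 61.4, 62.3, 60.2 and 52.3 CPM in 1b+/-. The groups overlapped, and the fold change was -0.03 on the log2 scale (SE 0.07, adjusted p = 0.904). P2ry12 was at 44.7, 44.4 and 42.1 CPM in WT and at 45.6, 49.0, 44.3 and 37.7 CPM in 1b+/-, and its fold change of 0.01 had a 95% interval from -0.17 to 0.19. Tmem119, a transmembrane protein that marks microglia against other macrophages, was at 21.8, 25.8 and 22.6 CPM in WT and at 20.4, 23.1, 21.6 and 16 CPM in 1b+/-. The lowest mutant library of Tmem119 was the female one, and the groups overlapped (log2 fold change -0.21, SE 0.12, adjusted p = 0.541).

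Csf1r, the receptor on which microglial survival depends, averaged 110 CPM ± 6.01 (SD, n = 3) in WT and 106 CPM ± 7.49 (SD, n = 4) in 1b+/-. Its 95% interval, from -0.20 to 0.09 on the log2 scale, was the narrowest of the 10. Trem2, a lipid-sensing receptor, was at 6.34, 5.92 and 6.44 CPM in WT and at 5.79, 5.76, 5.33 and 4.53 CPM in 1b+/-. It was the 1 gene of the 10 without overlap between the groups, lower in 1b+/-, where 6.25% of all genes were lower without overlap. Its fold change of -0.22 (SE 0.11) gave an adjusted p of 0.506 in edgeR. Aif1, which encodes the calcium-binding protein Iba1 used to stain microglia, was at 3.75, 3.84 and 3.75 CPM in WT and at 3.19, 3.67, 3.49 and 3.80 CPM in 1b+/-. The WT libraries of Aif1 were close together while the mutant libraries spread to both sides of 3.5 CPM, and the 95% interval ran from -0.36 to 0.17. Cd68, a lysosomal glycoprotein of phagocytes, averaged 7.11 CPM ± 0.162 (SD, n = 3) in WT and 7.56 CPM ± 0.440 (SD, n = 4) in 1b+/-, with a 95% interval of the log2 fold change from -0.11 to 0.28.

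The C1q genes differed little between WT and 1b+/-, with the same libraries at both ends of the range. C1qa, the A chain, was at 31.8, 35.6 and 29.4 CPM in WT and at 28.0, 32.7, 31.0 and 25.7 CPM in 1b+/-. C1qb, the B chain, was at 27.6, 31.7 and 26.6 CPM in WT and at 28.2, 28.5, 26.5 and 24.6 CPM in 1b+/-. C1qc, the C chain, was at 29.0, 32.3 and 27.7 CPM in WT and at 27.5, 29.8, 29.5 and 25.8 CPM in 1b+/-. In each of the 3, WT replicate 2 was the highest library and 1b+/- replicate 4 the lowest, and the groups overlapped. The log2 fold changes were -0.14 for C1qa, -0.09 for C1qb and -0.08 for C1qc, with 95% intervals that reached no lower than -0.35 and no higher than 0.08.

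Over all 10 genes, the female 1b+/- library was the lowest of the 7 for 8 of the 10 genes, and WT replicate 2 the highest for 6 of the 10. Relative to the mean of the 3 male 1b+/- libraries, the female library stood between 73.9% (Tmem119) and 110% (Aif1), with a median of 86.4% and with 9 of the 10 genes below 100%. This round had 1 female and no female WT, so sex and the spread between mice cannot be told apart in that library. With sex as a covariate, added to the model, 0 of the 10 genes were called. With 1 female, that term fits replicate 4 alone. This fit therefore amounts to leaving that library out and cannot adjust for sex.

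In the homozygous round, Aif1, P2ry12 and Cx3cr1 had the lowest levels in 1b-/- relative to WT, with log2 fold changes of -1.20, -0.72 and -0.50, and the other 7 genes lay between -0.23 (C1qa) and 0.20 (C1qc). By edgeR's quasi-likelihood test, 0 of the 10 genes had an adjusted p under 0.05, beside 3.58% of 14838 genes (531 genes). At an unadjusted p under 0.05 the count was 3 of 10, beside 26.4% of all genes. The median log2 fold change of the 10 genes was -0.21 and that of all genes was -0.0013, and 9 of the 10 were below 0. Without overlap between the groups, 5 of the 10 were lower in 1b-/-, beside 30.2% of all genes lower without overlap. The striatal markers of the WT libraries, given above, moved with genotype in every one of these values, and their part in them was not tested.

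Aif1 was at 7.68 and 9.60 CPM in WT and at 3.78 and 3.73 CPM in 1b-/-. Both mutant libraries stood below both WT libraries, at 43.5% of the WT mean, and the mutants were nearly equal to each other. The log2 fold change was -1.20 (SE 0.23, 95% interval -1.79 to -0.61), and edgeR's quasi-likelihood test gave a p of 0.00314 before and 0.0604 after adjustment. The call of Aif1 depended on the test, on the filter and on the libraries fitted. In the fit of all 11 libraries both rounds share 1 estimate of the spread, and the heterozygous round alone varied less. The adjusted p was 0.00911 in the likelihood ratio test, 0.00724 in DESeq2, 0.0460 without the filter on low counts and 3.06e-04 in 1 fit of all 11 libraries, and it ran up to 0.168 when single libraries were left out.

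P2ry12 was at 80.7 and 112 CPM in WT and at 67.1 and 49.4 CPM in 1b-/-. The groups did not overlap, but the gap between them was smaller than the distance between the libraries within either group. The log2 fold change was -0.72 (SE 0.23), with an adjusted p of 0.132 in the quasi-likelihood test, 0.0343 in DESeq2 and 0.00919 in the fit of all 11 libraries. Cx3cr1 was at 87.6 and 85.1 CPM in WT and at 70.6 and 51.8 CPM in 1b-/-. WT libraries were alike and the 1b-/- libraries were not, and the log2 fold change of -0.50 (SE 0.18) had an adjusted p of 0.161, or of 0.0141 in the fit of all 11 libraries. Leaving out 1b-/- replicate 2 took the fold change of Cx3cr1 to -0.29.

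Csf1r was at 139 and 146 CPM in WT and at 134 and 113 CPM in 1b-/-, again without overlap (log2 fold change -0.21, 95% interval -0.55 to 0.13). Trem2 was at 15.7 and 14.2 CPM in WT and at 13.8 and 11.9 CPM in 1b-/-, with a log2 fold change of -0.22 and a 95% interval from -0.65 to 0.22. The gaps of both genes were smaller than the distance between the 1b-/- libraries. Tmem119 was at 27.2 and 24.7 CPM in WT and at 28.2 and 22.4 CPM in 1b-/-, so that the mutant libraries enclosed the WT ones. Cd68 was at 23.8 and 13.8 CPM in WT and at 20.5 and 16.7 CPM in 1b-/-, and here the WT libraries enclosed the mutants. The 95% interval of Cd68, from -0.76 to 0.74 on the log2 scale, was the widest of the 10, and that of Tmem119 ran from -0.47 to 0.39.

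**Figure D2:**
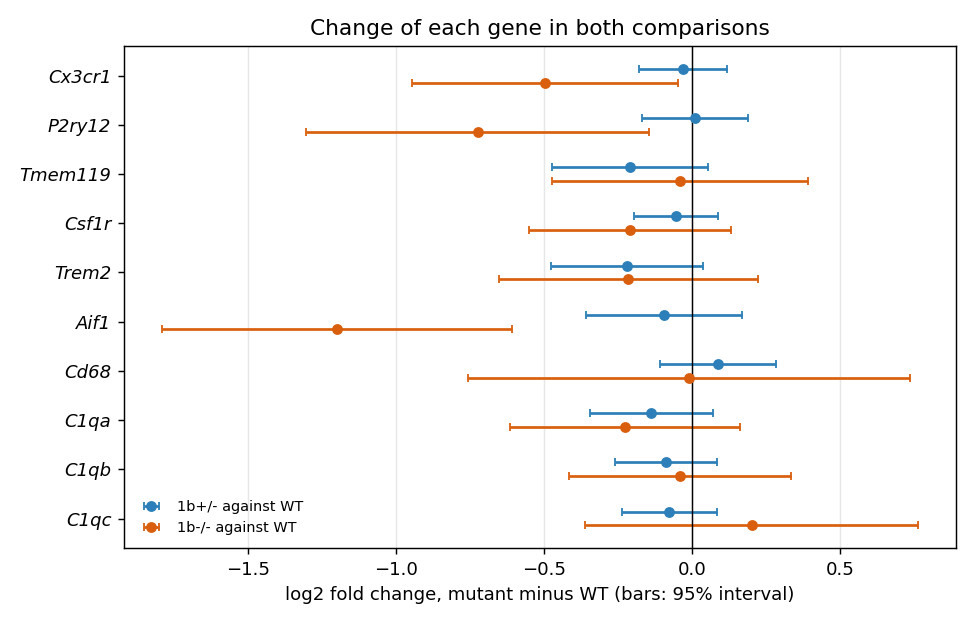
log2 fold change of each gene against the WT mice of its round, with bars for the 95% interval from edgeR's quasi-likelihood fit. The intervals of 1b+/- (n = 4 against 3) all cross 0, and those of 1b-/- (n = 2 against 2) stay below 0 for Aif1, P2ry12 and Cx3cr1.

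C1qa was at 95.4 and 80.7 CPM in WT and at 81.7 and 68.8 CPM in 1b-/-. C1qb was at 93.9 and 78.4 CPM in WT and at 89.5 and 78.1 CPM in 1b-/-. C1qc was at 69.8 and 47.0 CPM in WT and at 73.1 and 61.3 CPM in 1b-/-. All 3 overlapped between the groups, and C1qc was the 1 gene of the 10 with a fold change above 0. The log2 fold changes were -0.23 (95% interval -0.61 to 0.16) for C1qa, -0.04 (-0.42 to 0.34) for C1qb and 0.20 (-0.36 to 0.76) for C1qc. Without WT replicate 2 that of C1qc was -0.06, so its direction rested on that library.

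The libraries of 1 genotype also differed from each other in this round. The 1b-/- replicate 1 library was above 1b-/- replicate 2 for 10 of 10 genes, by a factor between 1.01 (Aif1) and 1.36 (Cx3cr1) with a median of 1.19. WT replicate 1 was above WT replicate 2 for 7 of 10 genes and below it for the others, with ratios between 0.721 (P2ry12) and 1.73 (Cd68). The lower 1b-/- library was the female one, which was also the lowest of all 4 libraries for 8 of the 10 genes.

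The split of C1q counts among the chains differed within the homozygous round. C1qa, C1qb and C1qc together held 2591 counts or fewer in each library of the heterozygous round and between 4404 and 8597 counts in the homozygous round. C1qc took between 32.4% and 33.9% of them in all 7 libraries of the heterozygous round. In the homozygous round its share was 26.9% (exact 95% interval 25.8 to 28.1) and 22.8% (21.6 to 24.1) in WT, and 29.9% (29.0 to 30.9) and 29.5% (28.4 to 30.6) in 1b-/-. The intervals of the WT libraries overlapped neither each other nor those of the mutants, and they cover counting error only. C1qa took the opposite course, with 36.8% and 39.1% in WT and 33.5% and 33.1% in 1b-/-. With 2 libraries a group, the difference in shares was not tested.

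**Figure D3:**
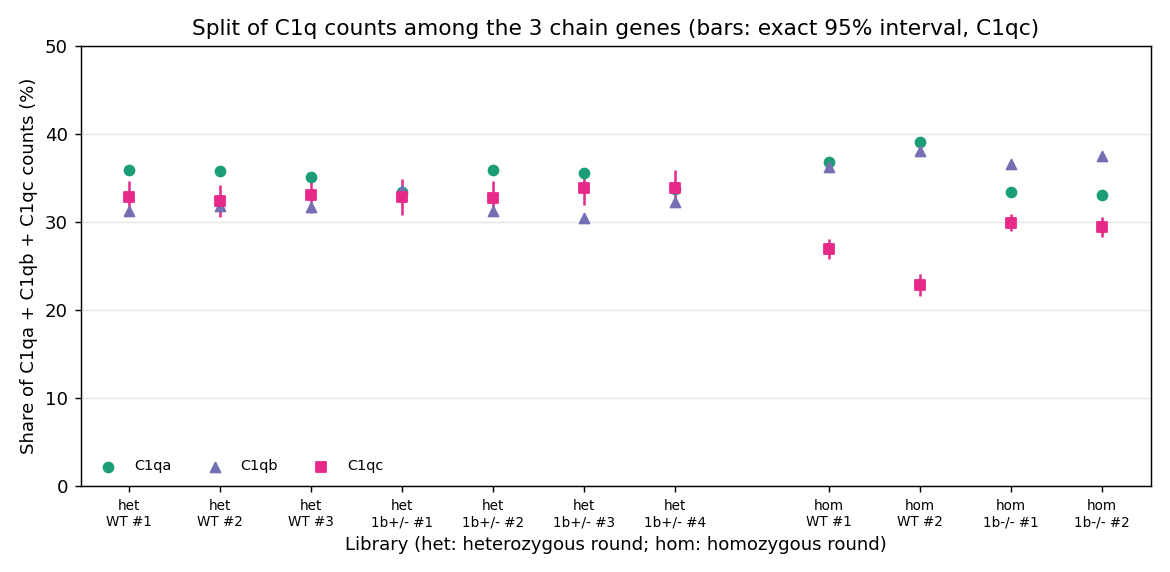
Share of the summed C1qa, C1qb and C1qc counts held by each gene in each library, in percent, with bars for the exact 95% interval of C1qc. C1qc sits between 32.4% and 33.9% throughout the heterozygous round and between 22.8% and 29.9% in the homozygous round, lowest in the WT libraries.

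The comparisons differed from each other for Aif1 and P2ry12. In 1 edgeR quasi-likelihood fit of all 11 libraries, the log2 change in 1b-/- minus that in 1b+/- was -1.11 for Aif1 (SE 0.20, adjusted p = 0.00311) and -0.74 for P2ry12 (SE 0.22, adjusted p = 0.0326). That was 2 of 10 genes, beside 27.3% of 14905 genes (4071 genes) in the same test. Cx3cr1 followed with -0.47 (SE 0.17, adjusted p = 0.0591). For the other 7 genes the difference lay between -0.16 (Csf1r) and 0.27 (C1qc), with adjusted p from 0.360 to 0.995. The difference of Aif1 kept its call under each of the 19 alternatives, with adjusted p from 3.40e-04 to 0.0137, while that of P2ry12 lost it in 7 of the 11 fits that left out 1 library. The same WT libraries with striatal markers enter this test.

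Levels set on 1 scale over all 11 libraries placed the groups differently for Aif1 and Cx3cr1 than for the C1q genes. Aif1 averaged 3.88 CPM in heterozygous-round WT, 3.63 in 1b+/-, 8.50 in homozygous-round WT and 3.67 in 1b-/-, so that the homozygous-round WT alone stood apart. Cx3cr1, at 61.9, 60.6, 85.0 and 59.9 CPM, was likewise highest in homozygous-round WT. P2ry12 was at 44.9, 45.3, 94.8 and 57.1 CPM, with 1b-/- above the heterozygous round. For the C1q genes both groups of the homozygous round stood above both groups of the heterozygous round. C1qa was at 33.1, 30.1, 86.6 and 73.7 CPM, C1qb at 29.4, 27.7, 84.8 and 82.0 CPM, and C1qc at 30.5, 28.9, 57.5 and 65.8 CPM. Cd68 (7.30, 7.76, 18.5 and 18.2 CPM) and Trem2 (6.40, 5.50, 14.7 and 12.6 CPM) also had both homozygous-round groups on top, as did P2ry12. Csf1r (113, 109, 141 and 121 CPM) and Tmem119 (24.0, 20.8, 25.5 and 24.7 CPM) had them on top too but differed less between the rounds.

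**Figure D4:**
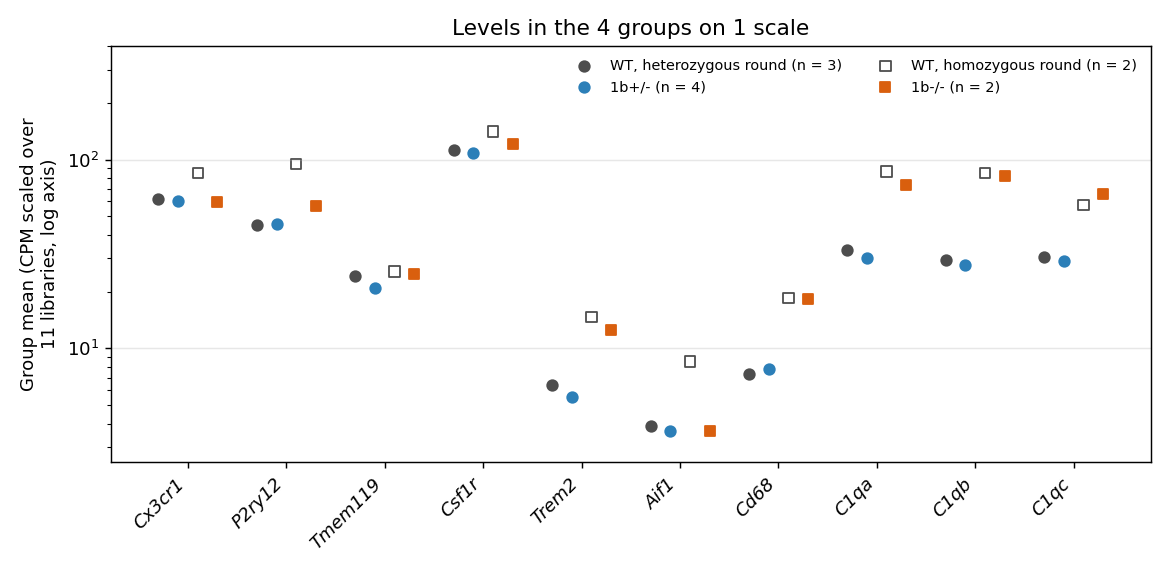
Group means of each gene in CPM scaled over all 11 libraries, on a log axis, for the 4 groups of the study. Open squares (homozygous-round WT) stand alone above the other 3 groups for Aif1 and Cx3cr1. Both square symbols stand above both circles for P2ry12, C1qa, C1qb, C1qc, Cd68 and Trem2, and narrowly for Csf1r and Tmem119.

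Between the WT groups of the 2 rounds, the ratio of homozygous to heterozygous was 2.88 for C1qb, 2.62 for C1qa, 2.53 for Cd68, 2.30 for Trem2, 2.19 for Aif1, 2.11 for P2ry12 and 1.89 for C1qc. It was 1.37 for Cx3cr1, 1.24 for Csf1r and 1.06 for Tmem119. The median over 14905 genes was 1.01, and 7.31% of them exceeded 2. Genes whose exons cover less than 1500 bases, which include C1qa, C1qb and Cd68, had a median of 1.22 and longer genes one of 0.993. Round, read type, sex and tissue content differ together between these WT groups and cannot be told apart, so this ratio was given no test.

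Per length of exon, C1qa had the highest WT mean of the 10 in both rounds. In heterozygous-round WT it stood at 31.0 RPKM ± 3.03 (SD, n = 3), where RPKM is CPM per kilobase of the union of exons. C1qb followed with 26.3 ± 2.47 and Csf1r with 21.0 ± 1.15, and the spreads of C1qa and C1qb met. P2ry12 (18.4 ± 0.600), Cx3cr1 (16.2 ± 0.766) and C1qc (15.4 ± 1.22) came next, the last pair within their spread. Below them were Tmem119 (10.1 ± 0.919), Cd68 (5.66 ± 0.129), Aif1 (2.47 ± 0.0343) and Trem2 (1.26 ± 0.0560), each apart from its neighbours. In homozygous-round WT, C1qa (84.7 ± 9.99, SD, n = 2) and C1qb (79.2 ± 10.1) again led, within each other's spread, and Aif1 (5.64 ± 0.885) and Trem2 (3.02 ± 0.213) again closed the order. In 1b-/- the C1qb mean (77.0 ± 7.41) was above that of C1qa (72.4 ± 8.77), also within the spread. The order depends on the length of the exon union over all annotated transcripts, which was 4946 bases for Trem2 and 1532 for Aif1. In CPM, Trem2 stood above Aif1 in WT of the heterozygous round (6.23 against 3.78) and of the homozygous round (14.9 against 8.64).

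The ligands and adaptors that the receptors use were measured beside them, and none was called in either comparison. In 1b-/- the fractalkine gene Cx3cl1 was at 888 CPM against 1109 in WT (log2 fold change -0.32, adjusted p = 0.357), and the Csf1r ligands were at 32.4 against 27.9 CPM for Csf1 (0.21) and 54.9 against 46.4 CPM for Il34 (0.24). The Trem2 partner Tyrobp was at 18.4 against 19.9 CPM (-0.12), the related adaptor Fcer1g at 14.2 against 12.5 CPM (0.19) and the Trem2 ligand Apoe at 2182 against 1773 CPM (0.30). Tgfb1, which maintains microglial identity, was at 8.69 against 8.35 CPM (0.06). Of the neuronal brakes on microglia, Cd200 had a fold change of 0.40 and Cd47 of -0.30, and of their receptors Cd200r1 had one of -2.33 at 0.159 against 0.834 CPM and Sirpa one of -0.00068. In 1b+/- the 10 tested genes of this list lay between -0.18 (Tgfb1) and 0.20 (Fcer1g), with Cd200 at -0.14 (unadjusted p = 0.0240), Apoe at -0.10 (0.0379), Sirpa at -0.10, Cx3cl1 at -0.08, Il34 at -0.14, Csf1 at 0.05, Tyrobp at 0.07 and Cd47 at -0.02. Hcst, a further adaptor, was below the filter in both rounds, and Cd200r1 in the heterozygous round.

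A list of 20 further genes of resting microglia, such as Siglech and Sall1, gave no call in either comparison. In 1b-/- 17 of the 20 were below 0, with a median of -0.38 and a range from -0.64 to 0.25, and 5 had an unadjusted p under 0.05, beside 26.4% of all genes. The smallest p values belonged to Tgfbr1, a TGF-beta receptor (37.6 against 25.3 CPM in WT and 1b-/-, log2 fold change -0.57, adjusted p = 0.0766), and Gpr34, a lipid receptor (17.1 against 11.3 CPM, -0.59, adjusted p = 0.141). In 1b+/- 15 of the 20 were below 0, with a median of -0.05. Ptprc, the leukocyte antigen CD45, was at 5.04 CPM in WT and 3.61 CPM in 1b+/- (-0.48, adjusted p = 0.181), and the macrophage receptor Adgre1 at 7.71 and 6.30 CPM (-0.29, adjusted p = 0.336). Of this list Ptprc and Adgre1 stood lowest in 1b+/- and the groups did not overlap for either, beside 6.25% of all genes lower without overlap. Both were named for their small p, a choice that favours genes without overlap.

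Activation genes did not share one direction. Of 20 genes that microglia raise around damage, 17 were tested in 1b-/- and none was called, with 13 above 0 and a median of 0.20. Timp2, a protease inhibitor, was at 386 CPM in 1b-/- and 263 in WT (log2 fold change 0.56, adjusted p = 0.0866), and Gpnmb, a lysosomal glycoprotein, at 7.52 CPM ± 5.41 (SD, n = 2) and 1.61 ± 0.171 (2.22, adjusted p = 0.0994). In 1b+/- 16 were tested with a median of 0.03, and Timp2 was at -0.36 (adjusted p = 0.266) and Gpnmb at 0.59 (0.274). Of 19 inflammatory mediators, 11 were tested in 1b-/- and 10 in 1b+/-, and none was called. In 1b-/- 7 of the 11 were above 0, with a median of 0.18. The list summed to 57.3 to 72.0 CPM in WT and 82.8 to 93.4 CPM in 1b-/-. Of that, Ptgs2 alone held a mean of 7.51 CPM in WT and 32.2 CPM in 1b-/-, so the sums do not show a rise over the list. In 1b+/- 5 of the 10 were above 0 and the sums overlapped. The cyclooxygenase gene Ptgs2 (2.10, adjusted p = 0.142) and Il18 (-0.59, adjusted p = 0.159) had the smallest p in 1b-/-, and Icam1 (0.41) and Casp1 (0.53) in 1b+/-. Among the untested 8 of this list in 1b-/-, the cytokines Tnf, Il1b and Il6 averaged at most 0.302 CPM in a group. The chemokine genes Cxcl10 (0.562 against 0.0226 CPM in WT), Ccl3 (0.607 against 0.232) and Ccl2 (0.137 against 0.0226) were higher in 1b-/- without overlap. Among all genes tested, 4380 of 14838 were higher without overlap. In WT these 3 genes held totals of 1, 10 and 1 counts, too few to show a rise. Tnf (2 WT counts) was also higher without overlap, Il6 (4 WT counts) was lower without overlap, and Il1b, Ccl4 and Ccl12 overlapped.

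In the complement cascade, 1 of 18 tested genes was called in 1b-/-, beside 3.58% of all genes. This was Serping1, the C1 inhibitor, at 12.1 CPM ± 1.83 (SD, n = 2) in 1b-/- and 3.89 ± 0.131 in WT (log2 fold change 1.63, SE 0.21, adjusted p = 0.0307 by the quasi-likelihood test). Of 26 genes of the cascade and its regulators, 18 were tested there, with 11 above 0 and a median of 0.18. C3, the central component, was at 2.36 CPM ± 0.880 and 0.485 ± 0.175 (2.27, adjusted p = 0.0893), without overlap. In 1b+/- none of 19 was called, and the smallest p belonged to Cd46 (0.77, adjusted p = 0.283) and C1s1 (0.73, adjusted p = 0.297). Other genes carry a C1q domain but act at synapses. Of 7 tested in 1b-/-, 6 were above 0, with a median of 1.36. C1ql2 was called higher (5.37, adjusted p = 0.00298), Cbln3 was at 1.97 (adjusted p = 0.110) and Cbln2, the 1 below 0, at -1.93. In 1b+/- C1ql3 was at -0.28 (adjusted p = 0.329) and C1ql2 at 0.22 (adjusted p = 0.441), with a median of 0.0036. This list summed to 54.6 to 94.7 CPM in the WT libraries with striatal markers and to 178 to 231 CPM in 1b-/-. In the heterozygous round it summed to 197 to 209 CPM in WT and 193 to 216 CPM in 1b+/-. The part of tissue content in these changes was not tested.

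Other cells that could bring the same RNA were checked by their markers. Of 9 genes of border macrophages, 8 were tested in 1b-/- and none was called, with a median of 0.96 and summed levels of 28.7 to 30.8 CPM in WT and 33.2 to 40.2 CPM in 1b-/-; Cbr2 (2.08) and F13a1 (1.27) had the smallest p. In 1b+/- all 6 tested were below 0, with Lyve1 at -0.81 (adjusted p = 0.388) and Mrc1 at -0.24. Of 14 blood leukocyte markers only Cd4 passed the filter in either round. Cd4 was called lower in 1b-/-, at 0.745 CPM ± 0.00972 (SD, n = 2) against 72.2 ± 36.9 in WT (-6.59, adjusted p = 0.0191). In the heterozygous round it was at 0.386 CPM in 1b+/- and 0.796 in WT. The high level was thus confined to the WT libraries with striatal markers (46.1 and 98.3 CPM), and the part of those markers was not tested. The T-cell genes Cd3e and Cd3d were at 0.164 CPM or less on average in every group.

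**Figure D5:**
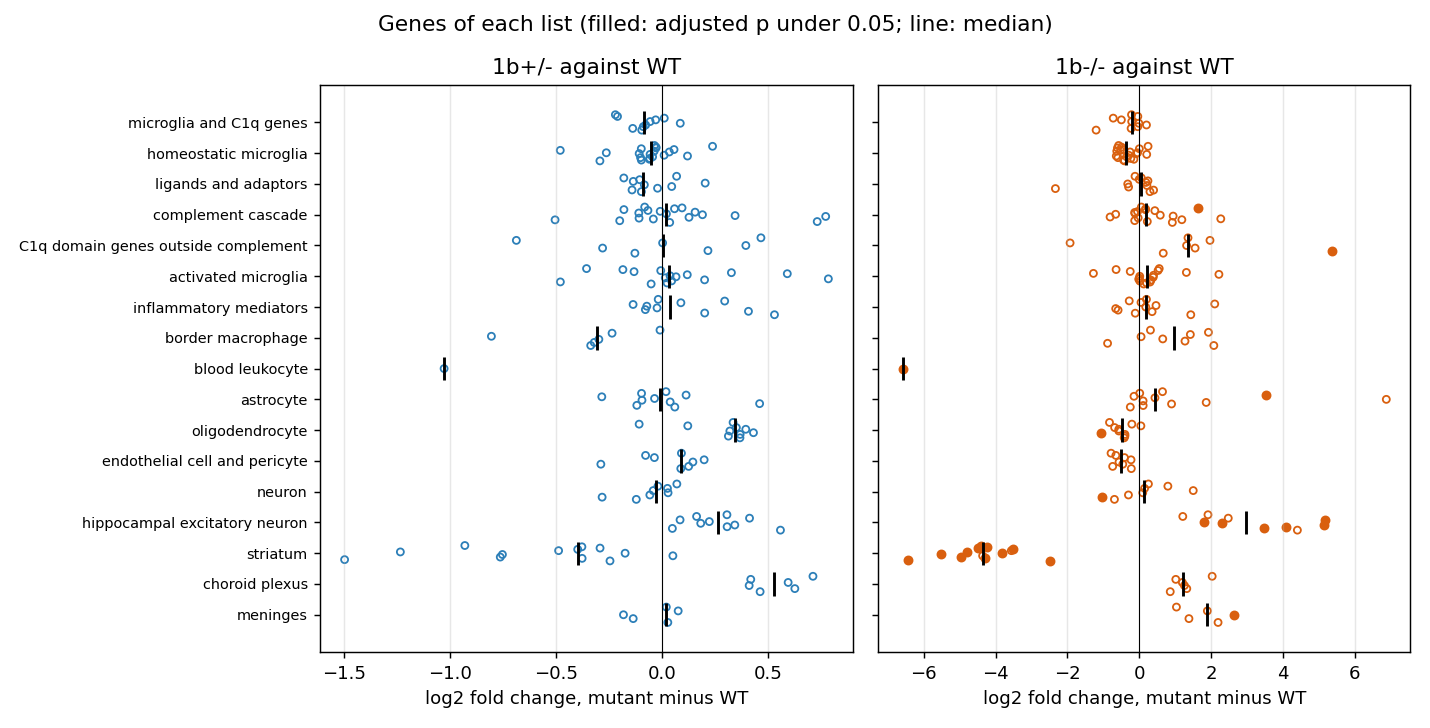
log2 fold change of each tested gene of 17 lists, with the microglia and C1q genes at the top; each circle is a gene, filled where the adjusted p was under 0.05, and the line is the median of the list. The horizontal scales of the panels differ. In 1b+/- no circle is filled, and in 1b-/- the filled circles gather in the lists of striatum (11 lower) and hippocampal excitatory neurons (6 higher).

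The remaining lists described the tissue around the microglia. Over all genes, 3.58% were called in 1b-/-. In 1b-/-, 11 of 13 striatal genes were called lower (median -4.36, with Tac1 at -4.41 and Drd1a at -4.29) and 6 of 10 genes of hippocampal excitatory neurons were called higher (median 2.97, with Spink8 at 5.17 and Prox1 at 1.79). Of 8 general neuron genes Gad2 was called lower (-1.03), with Slc17a7 at 1.50. Of 11 astrocyte genes Serpina3n was called higher (3.53, adjusted p = 0.0283), with Gfap at 1.86 (adjusted p = 0.0504). Of 10 oligodendrocyte genes Mal was called lower (-1.07), with Mog at -0.69, and of 8 vessel genes none was called, with Flt1 at -0.74 and Slco1a4 at -0.78. Of 5 meningeal genes Dcn was called higher (2.63), with Col1a1 at 2.19, and of 6 choroid plexus genes none was called, with Ttr at 2.03 and Kl at 1.20 and summed levels from 53.8 to 13609 CPM across the 4 libraries. In 1b+/- none of these lists held a call, but 12 of 13 striatal genes were below 0 (median -0.40) and 8 had an unadjusted p under 0.05, beside 11.3% of all genes, and 10 of 10 genes of hippocampal neurons were above 0 (median 0.27). The part of these markers in the 1b+/- values of the microglia and C1q genes was not tested. The genes with the smallest p in 1b+/- were Tac1 (-0.93) of striatum, Dsp (0.56) and Zbtb20 (0.31) of hippocampal neurons, Gad2 (-0.28) and Gad1 (-0.12), S100a10 (-0.28) and Gja1 (-0.09) of astrocytes, Mal (0.43) and Cldn11 (0.37) of oligodendrocytes, Flt1 (0.13) and Pdgfrb (0.20) of vessels, Dcn (-0.18) and Col1a2 (-0.14) of meninges, and Kl (0.60) and Folr1 (0.63) of choroid plexus.

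The genes were not equally tied to each other across mice. Against the mean of the 10 genes in log2 CPM, centred within each round, Pearson's r over the 11 libraries was 0.94 for Cx3cr1, 0.92 for C1qa and Csf1r, 0.81 for Trem2, 0.77 for P2ry12, 0.75 for Tmem119, 0.74 for C1qb and 0.63 for Aif1. Cd68 (0.37) and C1qc (0.27) followed that mean least. Among 13999 genes, the closest outside the group were Sesn3 (0.96), Egr3 (0.96), Ptn (0.95), 4632428N05Rik (0.95) and Msl1 (0.95), none of which was in any marker list used here. The 11 points share 2 rounds and few libraries, each gene of the group is part of the mean it was set against, and these values describe the libraries only.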

How the data were processed

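RNA-seq of 11 hippocampus libraries, 1 per mouse, was analysed. The authors deposited raw counts for each gene symbol, unscaled and unfiltered, after aligning reads of stranded mRNA libraries to mm9 with STAR 2.7.2 and counting with featureCounts. The sample descriptions name the tables of the rounds the other way round than the column headers do, and columns were matched by name. Per table, 27 symbols had been turned into dates, with at most 0.372% of the counts. No column was left unused.

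Counts were tested with edgeR 4.0.16 in R 4.3.3: genes of at least 1 CPM in at least 1 library, TMM factors, glmQLFit and glmQLFTest, Benjamini-Hochberg adjustment over all genes tested and 0.05 as the threshold. Mutants were set against the WT mice sequenced with them. The difference between comparisons used all 11 libraries and the genes shared by both tables, with 1 estimate of the spread per gene for all groups. Standard errors were derived from the fold change and its F statistic. Replicate libraries of a group differed by more than sampling noise (chi-square per gene from 6.01 to 79.1). Totals of at least 20667122 counts put a gene at 1 CPM at about 20 counts, where counting error is not small beside the spread between mice (a biological coefficient of variation of 9.13% with 1b+/- mice and 22.9% with 1b-/- mice). Alternatives were the likelihood ratio test, DESeq2 1.42.0, RLE and upper-quartile factors, library size alone, no filter, filterByExpr, sex as a covariate, 1 fit of all 11 libraries and each library left out. The only female of the heterozygous round was 1b+/- replicate 4, and the only male of the homozygous round was 1b-/- replicate 1. Within a round, sex as a covariate therefore nearly repeats the fit without that library. Simulated counts with known changes were used to check the code.

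The 10 genes and the gene lists were chosen with earlier results of these data known. Genes named from the lists were every ligand and adaptor, the 2 genes with the smallest unadjusted p of each other list in each comparison, and the 5 genes most like the mean of the group (of at least 1 CPM on average, log2 CPM with a prior count of 2). One gene selected in this way is left out here. Further list genes named in the text were chosen after their values were seen. Gene models came from GENCODE vM1 on mm9, and promoters from RefSeq on GRCm38.p6.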

Additional observations from a re-analysis of the deposited data

Results flagged for a closer look

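Aif1 and P2ry12 differed between the comparisons by a test of the difference itself. The log2 change in 1b-/- minus that in 1b+/- was -1.11 for Aif1 and -0.74 for P2ry12, from edgeR's quasi-likelihood fit of all 11 libraries. In the same test 27.3% of 14905 genes were called, against 2 of the 10, so the calls do not set these genes apart. Both 1b-/- libraries were below both WT libraries of their round for each gene, while 1b+/- and WT overlapped. For P2ry12 the call was lost without any of 7 libraries: 1b+/- replicate 1, 2 or 3, heterozygous-round WT replicate 2 or 3, homozygous-round WT replicate 2, or 1b-/- replicate 2. Without homozygous-round WT replicate 2 the difference of P2ry12 was -0.49 (adjusted p = 0.119), and without 1b-/- replicate 2 it was -0.53 (adjusted p = 0.102). The WT libraries of the homozygous round held the striatal markers described above, and the part of those markers in the difference was not tested. In the 4 libraries of 1b+/-, no gene of the 10 had a library far from the others by Dixon's test. With 4 libraries that test can find only an extreme one, and 1b+/- replicate 4 was still the lowest of its round for 8 of the 10 genes.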

How the results depend on the processing

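In 1b+/- none of the 10 genes was called under any of 16 alternatives. In 1b-/- the count of 0 became 1 with the likelihood ratio test (Aif1), 2 with DESeq2 (Aif1 and P2ry12), 1 without a filter (Aif1) and 3 in 1 fit of all 11 libraries (Aif1, P2ry12 and Cx3cr1), and it was 0 to 0 when single libraries were left out. In the difference between comparisons the count of 2 became 4 with sex as a covariate, and 1 to 3 with single libraries left out. For genes of the other lists, the count in 1b+/- of 0 became 4 with the likelihood ratio test, 4 with DESeq2 and 1 without a filter, and 0 to 14 with libraries left out, 14 without WT replicate 1. In 1b-/- the count of 24 became 50 with the likelihood ratio test, 51 with DESeq2 and 76 in the fit of all 11 libraries, and 0 to 33 with libraries left out, 0 without WT replicate 1. The causes were not tested. The share of all genes called under each alternative was not worked out. These counts are therefore not a result about the 10 genes. A fit that left 1 library in a group took that library to vary like the others.

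Fold changes near 0 changed sign under some alternatives. In 1b+/-, Cx3cr1 was 0.025 with sex as a covariate and ran from -0.068 to 0.025 with libraries left out, and P2ry12 from -0.043 to 0.081. In 1b-/-, leaving out single libraries gave ranges from -0.21 to 0.12 for Tmem119, from -0.17 to 0.099 for C1qb, from -0.056 to 0.52 for C1qc and from -0.35 to 0.44 for Cd68. The difference of Trem2 was 0.0063 with DESeq2, 0.0051 with RLE factors, 0.0077 without a filter and 0.0019 with filterByExpr. That of C1qb was -0.042 with library size alone and -0.11 with sex as a covariate, and that of Tmem119 was -0.14 with sex as a covariate. With libraries left out, the difference ran from -0.13 to 0.11 for Trem2, from -0.090 to 0.17 for C1qb, from -0.026 to 0.33 for Tmem119, from -0.24 to 0.030 for C1qa and from -0.45 to 0.34 for Cd68. The difference of Cx3cr1 passed the threshold under 7 of 19 alternatives. Over all values of single genes under alternatives, 424 kept their direction and their side of the threshold, 33 changed sign, 16 came to pass the threshold and 7 no longer passed it. No paired analysis was made, because each library is a different mouse and the labels match no mutant mouse to a WT mouse.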
